A study of Mus musculus with 56 samples.

Results

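The Iroquois homeobox genes Irx1 to Irx6 are described here by the H2A.Z that lies on them in mouse embryonic stem cells and by where it was lower after induction of Rnaseh1. The 6 members were taken by gene name from the authors' lists of lower and higher H2A.Z peaks, and their surroundings from the authors' peak set, in 2 windows that run from 100 kb before the outermost gene of each Iroquois cluster to 100 kb after it (GRCm38, the build also called mm10). Of 9077 lower peaks, 12 were assigned to the 6 genes, and of 318 higher peaks none was. The windows held 71 of the 61420 peaks of the set.

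The doxycycline cells, given 500 ng/ml of the drug for 48 hours, and their controls without it were of the line RHKI(E14Tg2a), an E14Tg2a embryonic stem cell line with an HA-tagged Rnaseh1 knocked in, so that both groups carry the inserted gene. Culture of both was in 2i/LIF, made with CHIR99021 at 3 µM, PD0325901 at 1 µM and 2% FBS. CUT&Tag, in which an antibody guides a transposase to the chromatin it binds, was done for H2A.Z on 4 doxycycline and 4 control libraries; the other 48 libraries of the series, for other targets and IgG, are not analysed here. RNase H1 cuts the RNA of RNA:DNA hybrids, and the comparison asks where H2A.Z changes once an enzyme that removes such hybrids, which form the core of R-loops, is induced. Whether RHKI is 1 clone is not given in the sources used here, and with no library of cells that lack the knock-in used here, an effect of doxycycline itself cannot be told apart from that of Rnaseh1.

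Iroquois proteins are transcription factors of the TALE class of homeodomains, first found in the fly. In the mouse the genes lie in 2 clusters of 3 that arose by duplication, with Irx3, Irx5 and Irx6 in one and Irx1, Irx2 and Irx4 in the other, and they act in the patterning of the neural tube, the heart, the limb and the retina. In embryonic stem cells developmental genes of this kind are mostly silent, and their CpG-rich promoters are known to carry Polycomb marks together with H2A.Z, a variant of histone H2A that is placed at promoters and enhancers.

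The files hold positions and calls. They give no fold change, no p-value and no value for a single library, so depth, the spread between replicates and the size of a change are unknown here. A peak is called lower or higher where the authors list it so. The names of the lists gave the direction, taken here as that of doxycycline cells against controls. It is in neither list otherwise, which does not show that it did not change. Less H2A.Z per cell and fewer cells with H2A.Z at a site cannot be told apart. Because the members were chosen from these lists, their calls and widths are given as a description with no test. Neighbouring peaks are not independent replicates.

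Promoter sequence of 3 of the 6 genes, Irx2, Irx3 and Irx4, was at hand from RefSeq (GRCm38.p6) and is shown because each stretch lies wholly inside a lower H2A.Z peak. Each line gives the 250 bases before the annotated start, 5′ to 3′ on the strand of the gene, with runs of 4 or more G in capitals. The Irx3 stretch is chr8:91801655-91801904 on the minus strand, that of Irx2 is chr13:72628570-72628819 on the plus strand and that of Irx4 is chr13:73260247-73260496 on the plus strand.
Irx3: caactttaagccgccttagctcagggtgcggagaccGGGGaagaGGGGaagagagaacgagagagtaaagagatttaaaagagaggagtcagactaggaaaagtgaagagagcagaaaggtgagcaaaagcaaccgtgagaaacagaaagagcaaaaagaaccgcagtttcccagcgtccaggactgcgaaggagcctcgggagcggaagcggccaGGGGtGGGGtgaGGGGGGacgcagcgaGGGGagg
Irx2: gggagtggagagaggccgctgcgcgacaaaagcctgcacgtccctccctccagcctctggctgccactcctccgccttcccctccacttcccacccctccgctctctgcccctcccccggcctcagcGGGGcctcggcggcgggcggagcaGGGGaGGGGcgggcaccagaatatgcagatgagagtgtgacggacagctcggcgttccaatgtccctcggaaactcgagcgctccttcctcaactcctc
Irx4: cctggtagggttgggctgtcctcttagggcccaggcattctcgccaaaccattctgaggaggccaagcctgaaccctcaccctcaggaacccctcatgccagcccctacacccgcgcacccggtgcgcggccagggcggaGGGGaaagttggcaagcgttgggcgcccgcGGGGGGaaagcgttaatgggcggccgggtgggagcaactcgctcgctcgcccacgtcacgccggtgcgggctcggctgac

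All 6 Iroquois genes had a lower H2A.Z peak on the gene body, and at 5 of them that peak held the transcription start site. Among protein-coding genes with any peak on the body, 38% had a lower one. A stricter rule, which asks that the centre of a lower peak lie within 1 kb of an annotated end of the gene, took in 5 of the 6, and 27.1% of all genes with a peak at an end met it. With 500 base pairs in place of 1 kb it took in 2 of the 6, Irx5 and Irx6, and 4 of the 6 had any peak there. Irx2 fell outside the 1 kb rule, because its annotated gene begins well before the start site that the authors used and its wide peak is centred between the gene's ends. At Irx4 the peak that met it was the one in the last exon, not the wide one at the start. By the authors' own assignment of peaks to the nearest start site, 26.5% of protein-coding genes had a lower peak. Of genes in the RefSeq promoter table with a start inside any peak, 27.9% had one inside a lower peak. Each of these shares is a background for reading the count of members and is no test of them.

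**Figure D1:**
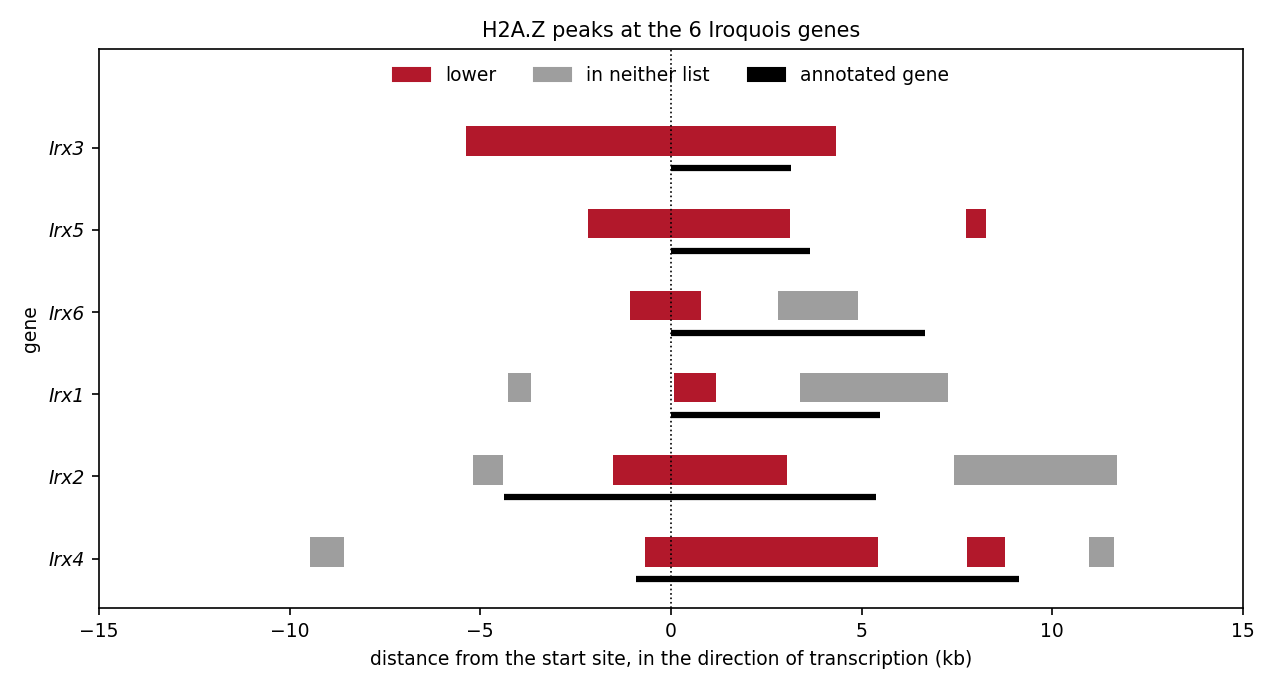
H2A.Z peaks within 15 kb of the start site of each Iroquois gene, with the horizontal axis in kb from the start in the direction of transcription. Red bars are lower peaks, grey bars are peaks in neither list and black lines are the annotated genes; the lower peak of Irx3 is 9726 base pairs wide and covers the whole gene, while that of Irx1 is 1117 base pairs wide and begins 74 base pairs after the start.

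In the chromosome 8 cluster, Irx3, a factor of neural tube patterning and of the heart's conduction system, had a single lower peak of 9726 base pairs (chromosome 8, 91797315 to 91807040). Measured from the start site in the direction of transcription it reached from -5386 to 4339 base pairs, and it covered 100% of the 3144 base pairs of the gene. It also took in 3705 base pairs of Irx3os, a lncRNA gene that begins upstream of Irx3, and 429 of the lncRNA gene Gm39222. No other peak lay within 10 kb of the start.

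Irx5, a homeobox gene of the retina and of the gradient of repolarization across the heart wall, had 3 lower peaks. The one at the start site was 5317 base pairs wide (92355609 to 92360925) and was annotated by the authors to the first exon. It covered 85.5% of the gene, and it held the start of Crnde, a lncRNA gene on the opposite strand, with 512 base pairs of overlap. The other 2 had the minimum width of the set. One lay 8003 base pairs downstream of the start in a CpG island and one 30257 base pairs downstream in an LTR33A element, an old endogenous retroviral repeat. Within 10 kb of the Irx5 start every peak was lower, as at Irx3.

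At Irx6, which acts in bipolar cells of the retina, the lower peak was narrow. It was 1876 base pairs wide (92673209 to 92675084), centred at -143 base pairs from the start, and covered 11.9% of the gene. A second peak inside Irx6, of 2099 base pairs, was in neither list, so the start and the body of this gene differed in their calls.

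In the chromosome 13 cluster, Irx1, a gene of lung, limb and neural development, had the narrowest of the 6 lower peaks at a start. It was 1117 base pairs wide (chromosome 13, 71962533 to 71963649), lay in a CpG island of the first intron, and began 74 base pairs after the start site. A wider peak of 3879 base pairs over the 3′ part of the gene was in neither list. Lower H2A.Z covered 20.3% of Irx1, out of 58.7% covered by any peak. The authors also assigned to Irx1 a lower peak of 1054 base pairs that lay 83935 base pairs downstream in an L1Md_T element, a young L1 retrotransposon.

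Irx2, known from chick as a factor of cerebellum formation, had a lower peak of 4553 base pairs (72627311 to 72631863) that ran from -1509 to 3043 base pairs around the start and that the authors annotated to a CpG island in the first intron. It covered 46.6% of the annotated gene and 1254 base pairs of the lncRNA gene Gm20554. A peak of 782 base pairs just before the annotated gene and one of 4282 base pairs beyond its other end were both in neither list. The second lower peak assigned to Irx2 was 627 base pairs wide and lay 48932 base pairs away in an L1Md_A element, another young L1.

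Irx4, a ventricular factor of the heart, had 3 lower peaks, and both peaks on the gene were lower. The first, of 6116 base pairs (73259825 to 73265940), ran from -672 to 5443 base pairs around the start. The second, of 1008 base pairs, lay in the last exon, 8261 base pairs from the start. Together they covered 71.0% of Irx4. The last, of 626 base pairs, lay in intergenic DNA 29847 base pairs downstream. Genes with 3 or more assigned lower peaks, as Irx4 and Irx5 had, made up 7.09% of the 6690 genes with any.

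Paralogues of the 2 clusters were not alike in width. The peaks at the start of Irx2 and Irx5 were close, at 4553 and 5317 base pairs. Irx1 and Irx3 had 1117 and 9726, and Irx4 and Irx6 had 6116 and 1876. Irx3 and Irx5, which are expressed together in many tissues, were both covered over most of the gene, as was Irx4 of the other cluster (71.0%). Irx3 and Irx5 are also the shortest Iroquois genes, at 3144 and 3661 base pairs, so a peak of given width covers more of them. At Irx1 and Irx6 the lower call was limited to a peak at the start. A wider peak further into each of these genes was in neither list.

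Outside the genes the clusters looked different. In the windows 14 of 71 peaks were lower (19.7%, 95% exact Clopper-Pearson interval 11.2 to 30.9%, which covers counting only), against 14.8% of the whole set, so the clusters as a whole stood near the background. None of the 71 was higher, which allows a share of up to 4.23%, and 0.518% of the whole set was. The chromosome 8 window held 5 lower of 26 peaks and the chromosome 13 window 9 of 45. Of the 9 peaks that overlapped a member, 7 were lower, and of the other 62 peaks 7 were (11.3%). In the whole set 21.7% of peaks on a protein-coding gene and 8.37% of the others were lower.

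Counted in base pairs rather than peaks, 32.0% of the DNA under H2A.Z peaks in the windows was under lower peaks, against 13.7% in the whole set. The share was 46.3% in the chromosome 8 window and 24.0% in that of chromosome 13. Of the 34551 base pairs under lower peaks, 29713 were in the 7 peaks on the genes, and 9726 in the Irx3 peak alone. Irx3 was named in the choice of these genes for the width of that peak, which lies in the chromosome 8 window. The shares in base pairs are therefore a description. They cannot be tested against the whole set, nor the windows against each other. Off the genes, the 7 lower peaks had a median width of 626 base pairs, and none was wider than 1054.

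The long stretches between the genes carried mostly peaks in neither list. That is also the rule in the whole set, where 8.37% of peaks on no protein-coding gene were lower. Between the peaks at the starts of Irx3 and Irx5, 549 kb apart, lay 12 peaks, and between those of Irx1 and Irx2, 664 kb apart, lay 11, and none of these was lower. The widest of them had 3567 base pairs in the first stretch and 3233 in the second. Between Irx2 and Irx4 (628 kb) 1 of 16 was lower, the L1Md_A peak. The shortest stretch, between Irx5 and Irx6 (312 kb), held 3 peaks, of which the 2 narrow ones next to Irx5 were lower. On the far side of Irx4, a lower peak of minimum width was assigned to Ndufs6, which encodes a subunit of respiratory complex I, at 18021 base pairs from its start, and one of 1028 base pairs to the lncRNA gene Eprn, at -18538. The peak of 3807 base pairs that overlaps both Ndufs6 and its neighbour Mrpl36, and that of 3350 at Eprn, were in neither list.

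**Figure D2:**
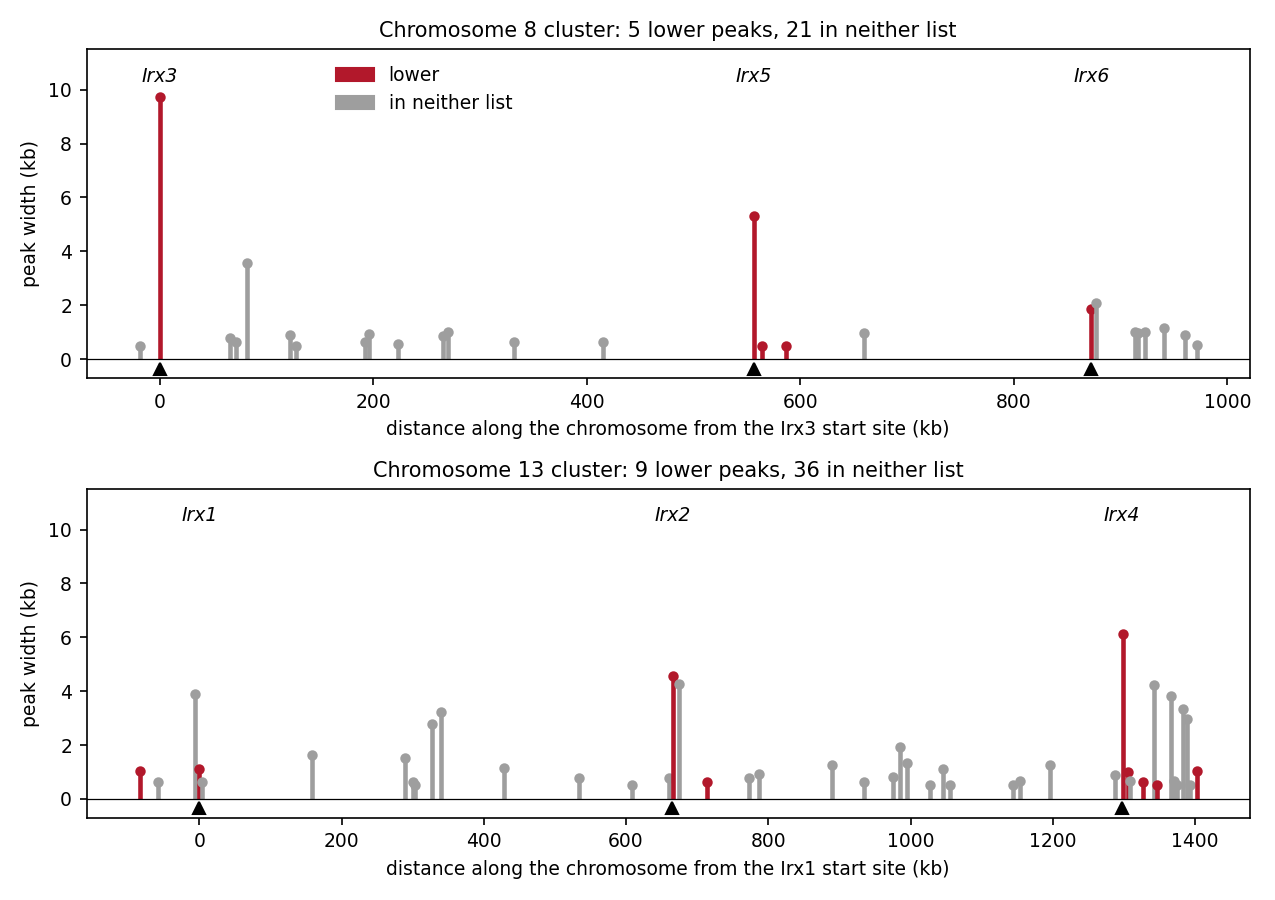
Every H2A.Z peak of the windows around the chromosome 8 cluster (upper panel) and the chromosome 13 cluster (lower panel), at its distance in kb from the start site of Irx3 or Irx1, with its width in kb as height. Red marks the 14 lower peaks, grey the 57 in neither list and black triangles the start sites. The tallest peaks, at Irx3, Irx4 and Irx5, are red. The stretches between the genes are mostly grey, and in the whole set 8.37% of peaks on no protein-coding gene were lower.

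Of the 6 lower peaks at the starts of Irx genes, 4 were wide for lower peaks. The peak at Irx3 ranked 7 by width among the 9077 lower peaks, that at Irx4 ranked 80, that at Irx5 124 and that at Irx2 221. Those at Irx6 and Irx1 stood in the main body of the distribution, at ranks 1778 and 4142. The median over the 6 was 4935 base pairs, against 1034 for all lower peaks. These are unlike sets, since the 6 are the peaks at gene starts and the 1034 covers lower peaks wherever they lie. All 14 lower peaks of the windows had a median of 1041, near that of the whole set. Among the 1713 lower promoter peaks that of Irx3 was the widest, which is how it came to be named in the choice of these genes; those of Smarcd3 (9548 base pairs), Msx1 (8619) and Smpd5 (7175) came next.

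Wide peaks were seldom lower in the set as a whole. Of the 2032 peaks of 5 kb or more, 7.53% were lower. The windows held 3 such peaks, at Irx3, Irx4 and Irx5, and all 3 were lower. These genes were chosen from the lists, with Irx3 named for its wide lower peak. The 3 therefore cannot be tested against the 7.53%. In the next class, from 3000 base pairs up to that width, 1 of 8 peaks in the windows was lower, that at Irx2, and 11.1% were in the whole set. From 1000 base pairs to just under 3000, 5 of 19 were lower in the windows (26.3%) and 17.7% in the whole set. Below 1000 base pairs 5 of 41 were lower in the windows (12.2%), against 13.6% in the whole set.

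**Figure D3:**
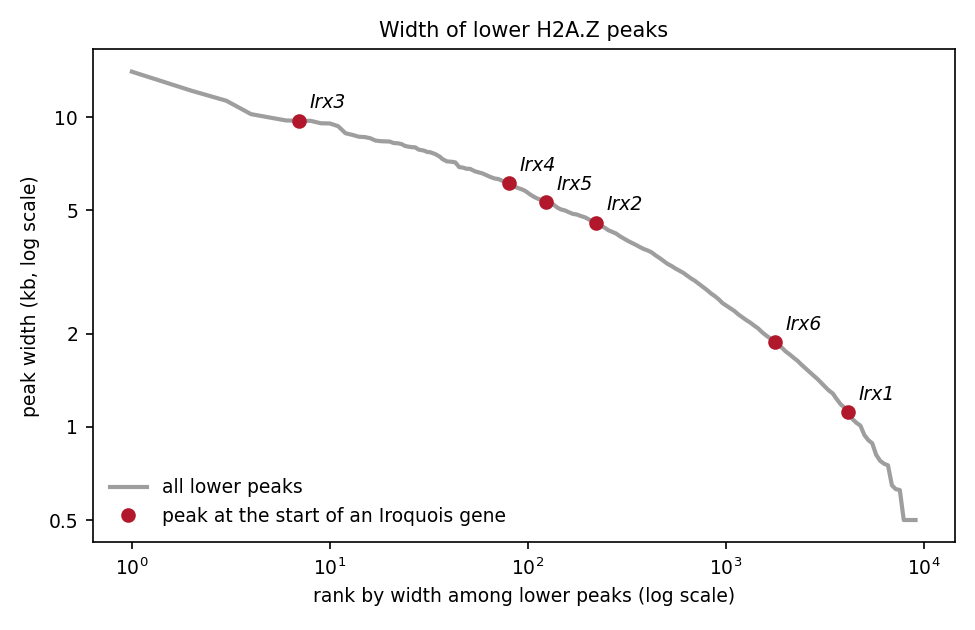
Width in kb of every lower H2A.Z peak against its rank by width, both on log scales, as a grey line drawn through a sample of ranks, with the 6 peaks at the starts of Iroquois genes as red points. Irx3, Irx4, Irx5 and Irx2 lie at ranks 7 to 221, and Irx6 and Irx1 at 1778 and 4142.

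Lists of related genes were set beside the family. Of the 6 Dlx genes, homeobox genes of forebrain and branchial arches that also lie in small clusters, 4 had a lower peak on the gene, and all 6 had a peak there. Of the 39 Hox genes, which pattern the body axis, 35 had a peak on the gene and 18 a lower one. Among protein-coding genes with a peak on the body, 38% had a lower one. Of genes with a peak centred within 1 kb of an end, 3 of 4 Dlx and 12 of 22 Hox genes had a lower one. The share over all genes with a peak there was 27.1%. The widest lower peak assigned to a Hox gene was one of 3574 base pairs at Hoxd9, and the widest at a Dlx gene was one of 2935 at Dlx2, so in both lists 0 genes had one of 4 kb or more, against 4 of the 6 Iroquois genes and 4.65% of all genes with a lower peak assigned. The median of the widest assigned lower peak per gene was 4935 base pairs over Irx genes, 2434 over Dlx genes with one, 1312 over Hox genes with one and 1167 over all genes with one.

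The other TALE homeobox genes, whose proteins include DNA-binding partners of Hox proteins, numbered 12, of which 10 had a peak on the gene and 3 a lower one, Meis1, Meis3 and Pknox1. By the authors' assignment 5 of the 12 had a lower peak, against 26.5% of protein-coding genes. Of these, Meis2 and Mkx had no lower peak on the gene. The widest peak assigned to each lay 204920 and -109116 base pairs from its start. None of the 4 with a peak centred within 1 kb of an annotated end had a lower one there. Meis3 is not among those 4, but the authors list a lower promoter peak of 1322 base pairs for it, centred at -8 base pairs from the start site they used. Pknox2 had 20 peaks on the gene, and none of these was lower. The widest lower peak assigned to any of the 12 was 1371 base pairs, at Meis1, and lay at -8102 base pairs from its start.

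Among 14 genes that act with or below Iroquois factors in the neural tube and heart, 13 had a peak on the gene and 5 a lower one. Myl7, the atrial myosin light chain, had a lower promoter peak of 6141 base pairs. At Nkx2-5, a cardiac homeobox gene, the lower peak was in the first intron and 3114 base pairs wide. Shh, the signal that patterns the ventral neural tube, had 2 lower peaks on the gene, though the authors' assignment gave none to it, and Nkx6-1 and Tbx5 had 1 each. Olig2, which Irx3 represses at the border of the motor neuron domain in chick, and Pax6 and Nkx2-2 had peaks on the gene and none lower. The background for these counts, as for those of the TALE genes, is the 38% of protein-coding genes.

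**Figure D4:**
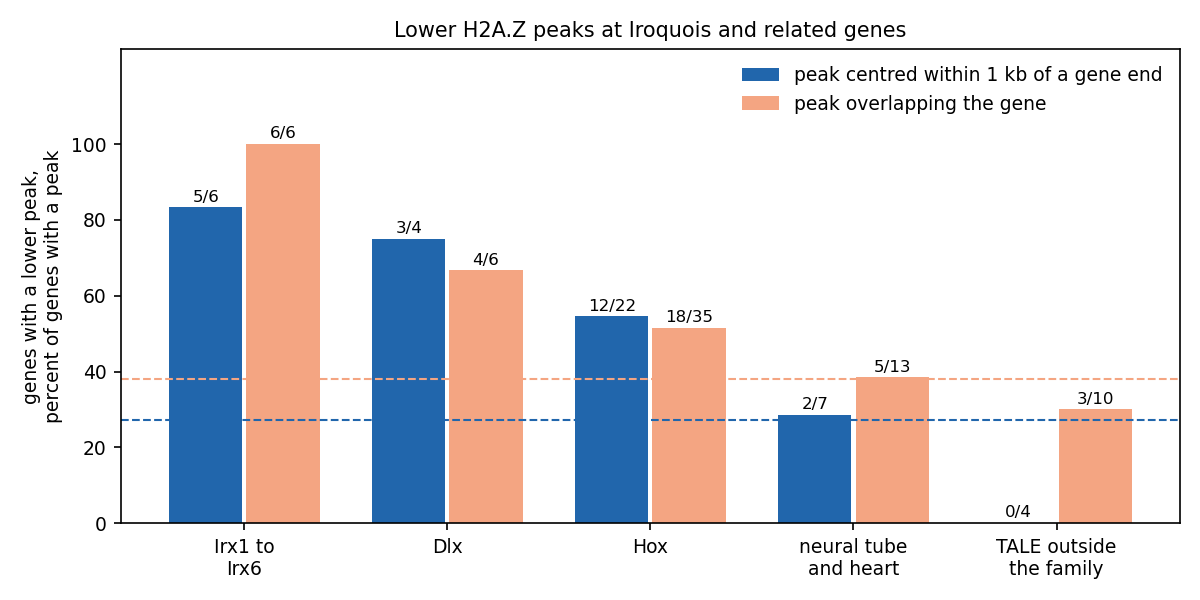
Share of genes with a lower H2A.Z peak, in percent of the genes of each list that have any peak, by centre within 1 kb of a gene end (blue) and by overlap with the gene (orange). Dashed lines are the shares over all genes, 27.1% and 38%; Iroquois genes stand at 5 of 6 (2 of 6 within 500 base pairs, not drawn) and 6 of 6, and TALE genes outside the family at 0 of 4 and 3 of 10.

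The cell type label could not be checked, since no RNA was measured. Among 7 pluripotency genes, Klf4 alone had a peak within 1 kb of an end, and 0 had a lower one there. The authors assigned 2 lower peaks to Klf4, the widest of 678 base pairs at -51293 base pairs from its start. Esrrb had 4 peaks on the gene, none of them lower. Of 6 fibroblast genes, listed as markers of feeder cells, 5 had a peak at an end and all 5 had a lower one, against 27.1% of all genes with a peak there. On the gene body, 5 of the 6 had a lower peak, against 38% of protein-coding genes. Both lists were chosen with earlier results of these data known, so these counts are no test of cell type. The part of other cells in the calls at Iroquois genes was not tested.

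The sequences printed above differ in composition, and these measures took no part in the choice of the genes. The stretch measured lies before the start given in the promoter table. At Irx3 it is outside the annotated gene. At Irx2 and Irx4 the annotated gene begins further upstream, so there the stretch lies inside it. Upstream of Irx3, 73.6% of the 250 bases were A or G, where the median over all 32851 promoters of the RefSeq table was 50%. Only 75 of those promoters, 0.228%, had as much or more. The GC skew, the excess of G over C divided by their sum, was 0.40 at Irx3, against a median of 0.00, and 1.37% of promoters reached it. Irx3 had 6 separate runs of 4 or more G on the strand shown and 0 runs of 4 or more C, and its longest stretch of A and G was 21 bases. At least 6 such G runs were found in 3.97% of promoters and at least 1 in 63.0%, or in 83.1% when the search for GGGG covers both strands.

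Irx2 and Irx4 did not share this composition. The Irx2 promoter had 44.0% A and G and a skew of -0.16, with 3 runs of G and 4 of C. That of Irx4 had 51.2% and 0.01, with 2 runs of each. Both were richer in G and C, at 68.4% and 68.8%, than that of Irx3 at 56.0%. The ratio of observed to expected CpG was 0.79 at Irx3, 0.67 at Irx2 and 0.74 at Irx4, above the median of 0.37 over all promoters. The median was 0.71 over the 3009 promoters that lie wholly inside a lower peak. It was 0.63 over those inside a peak in neither list.

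Across those 3009 promoters the median share of A and G was 50% and the median skew 0.00, and over the 8341 inside peaks in neither list they were 50% and -0.0061. The median share of G and C was 64.0% over promoters inside lower peaks and 57.6% over those inside peaks in neither list. GGGG on the strand of the gene was present in 83.5% and 72.5% of these promoters. Among promoters inside lower peaks, 95% had no more than 61.2% A and G, so that Irx3 lay in their upper tail. The purine measure was chosen after the sequences were seen, and whether composition bears on H2A.Z was not tested.

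**Figure D5:**
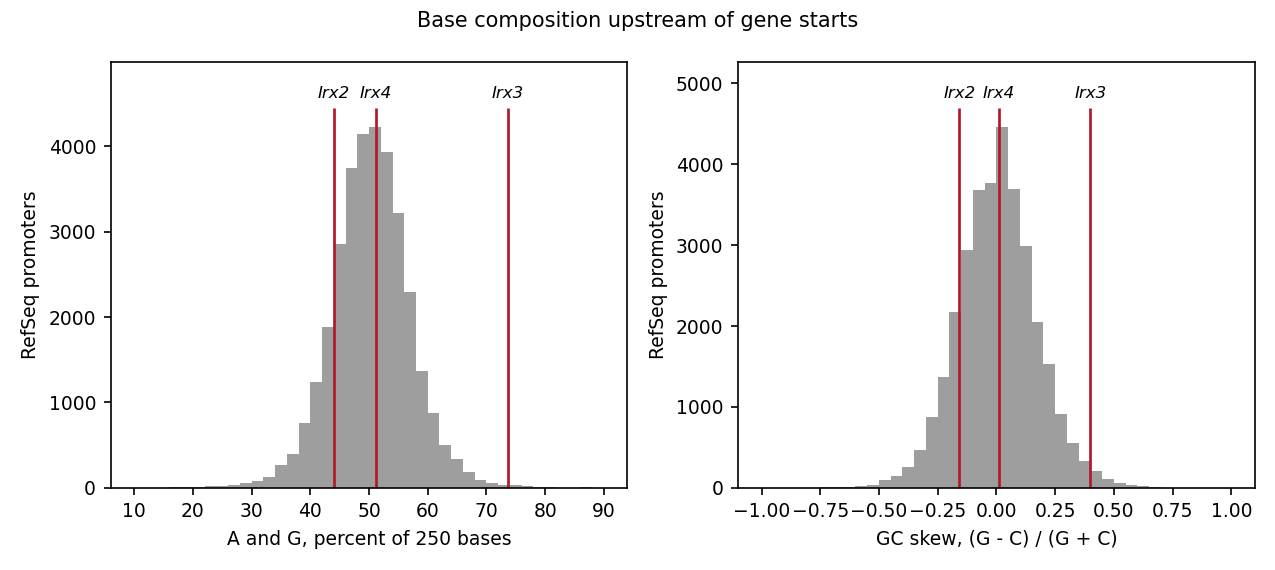
Share of A and G in percent (left) and GC skew (right) of the 250 bases upstream of 32851 RefSeq gene starts, as grey histograms of the number of promoters, with red lines at Irx2, Irx3 and Irx4. Irx3 lies in the right tail of both, at 73.6% and 0.40, while Irx2 and Irx4 lie within the bulk.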

How the data were processed

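H2A.Z CUT&Tag was compared between 4 doxycycline and 4 control libraries, grouped by their titles. The build GRCm38 and the tools deepTools, HOMER, Picard, Bowtie2 and Trimmomatic are named in the submitters' processing notes. How peaks were called, how the lists were tested and whether replicates were pooled is not stated in those notes or the labels, so how easily a peak of a given height or width could be called is unknown. Annotation of the lists was by HOMER's annotatePeaks, per the file headers. Listed peaks have a deposited score of 0 throughout, which was not used.

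Every listed peak had the coordinates of a peak of the set. Starts count from 1. Start sites and strands of members were recovered from the authors' distances (to within 1 base pair) and matched to RefSeq (GRCm38.p6). Of the 6 members, 3 were in the promoter table, which has 32851 promoters of 27025 genes. Its orientation was checked by the position of TATAAA: 15 to 45 bases before the start it was found in 702 sequences as printed and in 241 after reverse complementing. The members and lists were chosen with earlier results of these data known. Named were all members, genes with ends in the windows that a peak is annotated to, and members of the fixed lists. Counting of peaks per gene was tested on simulated data. Intervals are 95% exact Clopper-Pearson, and where no peak was found the limit is 3 counts. Alternatives covered the flanks, the rule that ties a peak to a gene, peaks of minimum width and the promoter window. Computation was in Python 3.11.15 with SciPy 1.17.1, pandas 2.3.3 and numpy 2.4.6, and plots were made with matplotlib 3.10.9.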

Additional observations from a re-analysis of the deposited data

How the results depend on the processing

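The share of peaks in the windows that were lower stayed within its counting interval, at 19.6 to 20.4% with no flank, 50 kb or 500 kb on each side, at 18.6% without peaks of the minimum width and at 19.7% with any overlap in place of identical coordinates. The share in base pairs was 38.4% with no flank, 35.7% with 50 kb, 31.2% with 500 kb and 32.4% without minimum-width peaks. The number of members with a lower peak was 5 within 3 kb of an end and 6 by overlap or by the authors' assignment, but 2, Irx5 and Irx6, within 500 base pairs. Under a rule added after the data were seen, 5 had the start inside a lower peak. The TALE genes with a lower peak numbered 0 within 1 kb, 2 within 3 kb and 3 by overlap, the Hox genes 12 within 1 kb, 7 within 500 base pairs and 19 within 3 kb, and the Dlx genes 3 within 1 kb and 1 within 500 base pairs. The median width of lower peaks in the windows was 1041 base pairs, and 1496.5 with no flank, 1062.5 with 50 kb, 1054 with 500 kb and 1117 without minimum-width peaks; for peaks in neither list it was 894, and 872, 909 and 948.5 with no flank, 500 kb and without minimum-width peaks. In a window of 300 bases, also added later, the share of A and G was 75.7% at Irx3, 43.7% at Irx2 and 50% at Irx4. The composition of whole peaks was not computed, since no genome was used here. No replicate could be left out, and no stricter threshold was tried, because the lists hold no value per library. No paired analysis was possible because no result comes from values of single libraries.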

Other observations

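The genes beyond the clusters, chosen after their values were seen, are given here as values only. Paralogous neighbours flank both Iroquois clusters, the noradrenaline transporter gene Slc6a2 beyond Irx6 and the dopamine transporter gene Slc6a3 beyond Irx4. The lower promoter peak of Slc6a2 was 1461 base pairs wide (chromosome 8, 92960135 to 92961595) and centred at -182 base pairs from its start. That of Slc6a3 was 1752 base pairs wide (chromosome 13, 73535699 to 73537450) and centred at -173. The genes begin 280 kb beyond the end of Irx6 and 267 kb beyond the end of Irx4. Their neighbours Lpcat2 and Lpcat1, which encode lysophospholipid acyltransferases, each had 1 peak at a gene end, in neither list. Background for these calls is the 27.1% of genes with a peak at an end.

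On the other side of the chromosome 8 cluster, Fto, whose introns hold known long-range enhancers of Irx3, had 2 peaks of the minimum width, both in neither list. Mmp2, a matrix metalloprotease gene between Irx6 and Slc6a2, had a lower peak of 762 base pairs in its 5′ UTR. Tert, the telomerase gene beyond Slc6a3, had one of 2859 base pairs centred 486 base pairs after its start. Clptm1l, between Slc6a3 and Tert, and Rpgrip1l, beyond Fto, each had 1 peak at a gene end, in neither list. That at an end of Slc12a7, beyond Tert, was lower. These complete the protein-coding genes with a peak at an end outside the windows and within 500 kb of the clusters. Their background is also the 27.1% of genes with a peak at an end.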
